A study of Mus musculus with 2 samples.

Results

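*Myog*-positive myogenic cells were examined in denervated mouse hind limb muscle at 7 days post injury (dpi). A cell barcode entered this set when it held more than 200 detected genes, less than 10% mitochondrial unique molecular identifiers (UMIs, 1 per captured transcript), at least 1 UMI of *Myog* or *Mymk*, at least 2 of the 6 myogenic genes *Pax7*, *Myf5*, *Myod1*, *Des*, *Cdh15* and *Chrna1*, and no UMI of *Csf1r*, *C1qa*, *Pdgfra* or *Pecam1*, which mark macrophages, fibroadipogenic progenitors and endothelium. Of 48848 barcodes, 122 met this rule. The IgG library held 52 of them and the SPP1-nAb library 70. A further 2467 barcodes passed the same filters without a UMI of *Myog* or *Mymk*, and these are called *Myog*-negative myogenic cells below.

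The scRNA-Seq series asked how blocking secreted phosphoprotein 1 (SPP1, osteopontin) changes the cells of a muscle that is losing and regaining its nerve. Male C57BL/6J mice per the labels, described in the methods as carrying the S100GFP transgene (GFP driven by the S100B promoter, meant to mark Schwann cells), were 10 to 16 weeks old and had both peroneal nerves crushed. The IgG mice received 2 μg of goat anti-mouse IgG in 10 μL into the tibialis anterior (TA) muscle and the SPP1-nAb mice received 2 μg of an SPP1 neutralizing antibody in the same volume, repeated every 2 days, and there was no uninjured group. Each condition was 1 library, and how many mice were pooled in it is not given in the sources used here. The titles name GFP-positive cells, the protocol describes a sort of GFP-positive and of GFP-negative live cells, and the labels name TA and gastrocnemius muscles where the methods name TA, so the gate and the muscles of these libraries are not certain. With 1 library per condition there was no replicate error and no test. Every interval below is a 95% interval of counting error, and a difference between IgG and SPP1-nAb cannot be told apart from a difference between 2 libraries. Values are given as counts per 1000000 (CPM) of the UMIs summed over the cells of a library, and a gene was counted as higher or lower when its ratio passed 2-fold.

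Muscle is repaired by satellite cells, which lie beneath the basal lamina of the fiber and express *Pax7*. Once activated they become myoblasts under *Myf5* and *Myod1*, and those that commit to differentiation switch on *Myog*, a bHLH transcription factor, leave the cell cycle with the help of the kinase inhibitors *Cdkn1a* (p21) and *Cdkn1c* (p57), and fuse through the membrane proteins *Mymk* (myomaker) and *Mymx* (myomixer). The first sarcomeres of the new fiber are built from developmental isoforms such as embryonic myosin (*Myh3*) and cardiac actin (*Actc1*), which adult isoforms later replace. Denervated fibers also express *Myog* and the fetal acetylcholine receptor subunits, so a *Myog* transcript by itself does not tell a myoblast from a piece of denervated fiber.

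*Myog* and its partners bind E-boxes, the short motif CANNTG, and the promoters of genes that marked these cells are shown for that reason. Sequences were taken from RefSeq on GRCm38.p6 as the 250 bases before the first start site listed for each gene, written 5′ to 3′ on the gene's own strand, with every CANNTG in capitals. The regions are chr1:134289754-134290003 for *Myog* (plus strand), chr2:114052876-114053125 for *Actc1* (minus strand), chr1:135836084-135836333 for *Tnnt2* (plus strand) and chr2:73580339-73580588 for *Chrna1* (minus strand).
Myog: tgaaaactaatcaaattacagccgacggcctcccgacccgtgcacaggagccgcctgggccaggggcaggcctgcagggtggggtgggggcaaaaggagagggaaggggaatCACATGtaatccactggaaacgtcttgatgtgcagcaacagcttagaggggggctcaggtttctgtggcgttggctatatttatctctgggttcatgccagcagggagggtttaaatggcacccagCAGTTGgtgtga
Actc1: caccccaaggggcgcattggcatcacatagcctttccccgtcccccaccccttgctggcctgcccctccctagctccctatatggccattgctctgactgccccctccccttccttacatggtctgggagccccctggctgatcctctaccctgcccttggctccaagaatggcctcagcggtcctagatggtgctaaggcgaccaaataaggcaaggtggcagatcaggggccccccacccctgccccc
Tnnt2: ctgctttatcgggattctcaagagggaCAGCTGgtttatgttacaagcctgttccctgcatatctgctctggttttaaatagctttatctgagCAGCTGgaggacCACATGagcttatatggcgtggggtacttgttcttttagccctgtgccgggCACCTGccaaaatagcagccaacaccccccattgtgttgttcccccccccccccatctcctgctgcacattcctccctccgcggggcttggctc
Chrna1: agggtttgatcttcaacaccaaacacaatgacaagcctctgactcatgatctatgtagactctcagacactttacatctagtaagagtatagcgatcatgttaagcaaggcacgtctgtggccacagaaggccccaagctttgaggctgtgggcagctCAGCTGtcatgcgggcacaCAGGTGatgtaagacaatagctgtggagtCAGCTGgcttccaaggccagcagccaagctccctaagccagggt
The *Myog* promoter held 2 CANNTG matches and the *Chrna1* promoter 3, of which 2 were CAGCTG and 1 was CAGGTG. The *Tnnt2* promoter held 4 matches, of which 2 were CAGCTG and 1 was CACCTG. The *Actc1* promoter held 0 matches to these letters in this window. Among the 15 genes ranked as highest in *Myog*-positive over *Myog*-negative myogenic cells, 11 had an entry. A CANNTG stood in 8 of these 11 promoters (72.7%) and in 66.0% of the promoters of all 27025 genes of the table, both strands being covered because the motif is its own reverse complement. The narrower CAGCTG, which is also its own reverse complement and is counted within CANNTG, stood in 3 of 11 (27.3%) and in 12.8% of all. Another subset of these E-boxes, CACCTG on either strand, stood in 2 of 11 (18.2%) and in 17.1% of all. MEF2 sites were searched on either strand as YTAWWWWTAR, where Y is C or T, W is A or T and R is A or G. This pattern stood in 1 of 11 (9.09%) and in 3.01% of all, with 0 matches in the *Myog* promoter. Other spellings of a MEF2 site were not counted. A match of letters was not tested as a binding site.

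*Myog*-positive myogenic cells were more deeply sequenced than the *Myog*-negative ones, and those of the SPP1-nAb library more deeply than those of the IgG library. Their median UMI count was 6765 in IgG, with a range of 1458 to 19048, and 9992 in SPP1-nAb, with a range of 923 to 31617. The medians of *Myog*-negative myogenic cells were 2473 and 3260.5, and those of all barcodes that passed the gene and mitochondrial filters were 3822 and 4756. The upper quartile of the members' depth was 9150 UMIs in IgG and 15637 in SPP1-nAb. The members' UMIs summed to 398766 in IgG and 786725 in SPP1-nAb. Members with at least 15161 UMIs were 3 of 52 in IgG and 18 of 70 in SPP1-nAb. Summed CPM of SPP1-nAb therefore weigh toward these deep cells more than those of IgG. A total of 163 barcode sequences occurred in both libraries, and none of these was a member.

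*Myog* and *Mymk*, with at least 2 of the 6 myogenic genes, chose these cells, so the levels of all 8 describe the choice. *Myog* UMIs per cell ran from 1 over a median of 11 to 58 in IgG and from 0 over a median of 4 to 92 in SPP1-nAb. *Myog* and *Mymk* were found together in 31 IgG and 25 SPP1-nAb cells, *Myog* alone in 21 and 43, and *Mymk* alone in 0 and 2. Among the 6, *Chrna1*, the α subunit of the muscle acetylcholine receptor, was in 46 of 52 IgG cells (88.5%) and 59 of 70 SPP1-nAb cells (84.3%). *Des*, the muscle intermediate filament desmin, was in 45 (86.5%) and 66 (94.3%). *Myod1* was in 35 (67.3%) and 44 (62.9%), and all 5 markers together in 15 cells of each library. Most cells lacked at least 1 of these 5 genes, all of which the rule used.

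The rule drew lines through low counts. Exactly 1 UMI of *Myog* and *Mymk* together was held by 8 IgG and 18 SPP1-nAb members, 26 of the 122. Exactly 2 of the 6 myogenic genes were detected in 20 and 22 members, and 15 IgG and 8 SPP1-nAb cells with *Myog* or *Mymk* and exactly 1 of the 6 stayed just outside. A further 17 IgG and 27 SPP1-nAb cells met every other part of the rule and were left out for a UMI of an excluded gene, 12 and 13 of them for exactly 1 such UMI. As a measure of free RNA, *Myog* was found in 0.0907% of 12135 phagocytes (cells with *Csf1r* or *C1qa* and under 2 of the 6 genes) in IgG, at a median of 4080 UMIs, and in 0.270% of 15210 in SPP1-nAb, at 5197.5 UMIs. The members held 66.0% of the *Myog* UMIs of the filtered IgG barcodes and 67.2% in SPP1-nAb.

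**Figure D1:**
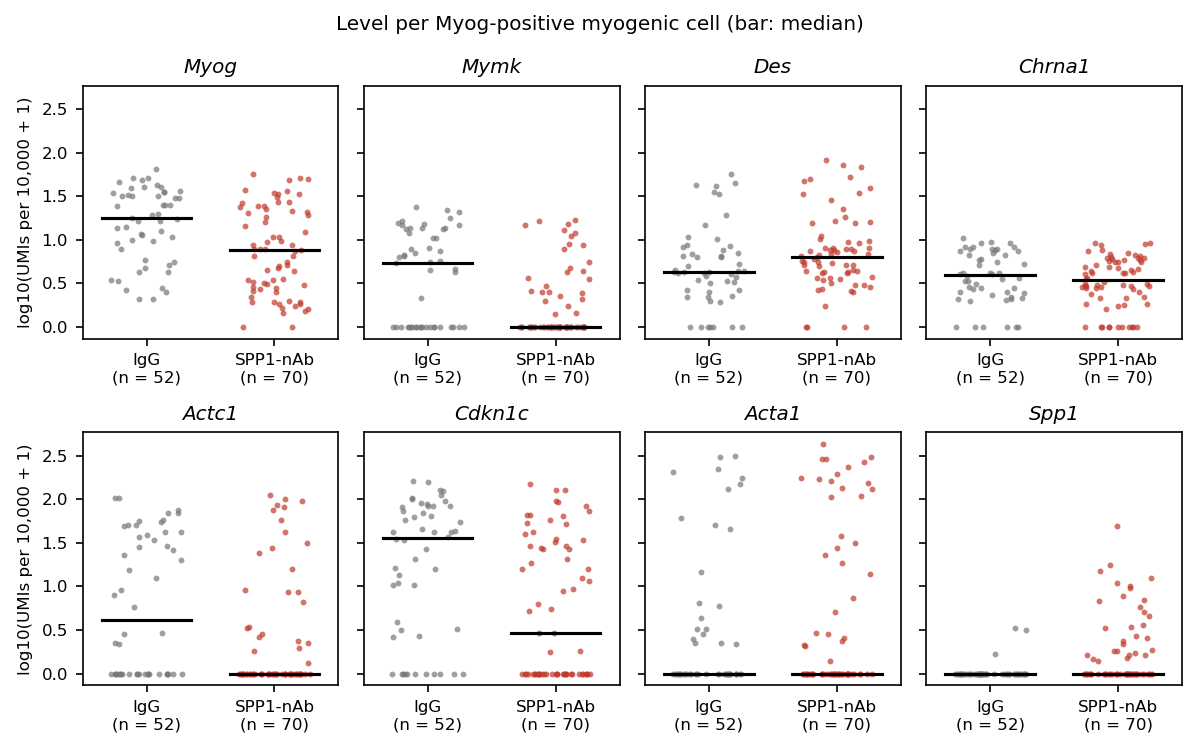
Level of 8 genes in each *Myog*-positive myogenic cell, as log10(UMIs per 10,000 + 1), for IgG (n = 52, grey) and SPP1-nAb (n = 70, red), with 1 point per cell and a bar at the median. *Des* and *Chrna1* overlap between the libraries over most of their range, with the highest *Des* cells in SPP1-nAb, *Cdkn1c* and *Actc1* are spread from 0 upward in both, *Acta1* is high in a separate set of cells in both, and *Spp1* has 3 points above 0 in IgG and 30 in SPP1-nAb.

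Compared with the *Myog*-negative myogenic cells, the genes that ranked highest in the members included those of commitment, fusion and the first sarcomeres. This contrast follows from the rule and is given as a description. Of 9942 genes compared, 630 (6.34%) were at least 2-fold higher in both libraries and 1321 (13.3%) at least 2-fold lower. *Actc1* was 10.32 log2 units higher in IgG and 8.98 in SPP1-nAb, and *Mymx*, with 1 UMI in the *Myog*-negative cells of each library, 9.91 (7.39 to 15.23) and 8.73 (6.21 to 14.05). *Myog* itself was at least 11.71 and 10.49 higher and *Mymk* at least 10.04 and 8.23, both set against the level of 3 UMIs in *Myog*-negative cells, where the rule put them at 0. The cardiac troponin T gene *Tnnt2* (7.22 and 6.34), the slow troponin I gene *Tnni1* (6.83 and 5.98) and *Myh3* (8.91 and 5.40) followed. The list went on with the long noncoding RNA gene *Gm28653*, *Fndc5* (the precursor of irisin), *Arpp21*, *Bex1*, *Sln* (sarcolipin, an inhibitor of the sarcoplasmic reticulum calcium pump), *Csrp3* (muscle LIM protein), *Mylk4* and *Dpp6*, with log2 ratios of 4.34 or more in each library. All 9 genes compared of the developmental sarcomere list and all 11 of the adult fast sarcomere list were 2-fold higher in both libraries. Without the 21 cells of adult fiber RNA described below, all 9 of the first list and 1 of the 11 of the second (*Myh1*) were, and the adult fast list stood at 5224 and 2204 CPM against 2075 and 2325 CPM in *Myog*-negative cells. Of the 1832 IgG UMIs behind the 5224 CPM, 991 were in 1 cell. *Sln* was in 4 IgG and 6 SPP1-nAb members, with 96.8% and 95.1% of its UMIs in 3 cells. Without the 21 cells *Sln* had 17 and 0 UMIs of its 95 and 123, and *Csrp3* 32 and 2 of its 70 and 76.

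Genes at the other end were nearly absent from the members. *Calcr*, the calcitonin receptor of quiescent satellite cells, had 0 UMIs in IgG members and 2 in SPP1-nAb members, against 238 and 116 CPM in *Myog*-negative cells. *Chodl*, a lectin-type membrane protein, stood at 10.0 and 3.81 CPM against 706 and 563. *Dpt*, *Csmd1*, *Ccn2*, *Abca8a*, *Nrep* and *Hsd11b1* were also among the 10 lowest, each with at most 10 UMIs in the members of a library and at least 204 in its *Myog*-negative cells. Of the 14 genes of the satellite cell quiescence list, 11 were 2-fold lower in both libraries and 0 were higher. *Pax7*, at 2000 UMIs per cell, was found in 5.88% of 51 IgG members and 2.99% of 67 SPP1-nAb members, compared with 64.0% and 59.5% of *Myog*-negative cells. Unthinned, it was in 13.5% of IgG and 25.7% of SPP1-nAb members, an order opposite to the thinned one, and in 81.2% and 81.6% of *Myog*-negative cells.

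Within the members, *Mymk* and the developmental sarcomere went together, and a separate set of cells held the RNA of adult fibers. This split was chosen after the data were seen and marks ranges and not types. *Mymk* was detected in 31 IgG and 27 SPP1-nAb cells, and in these the developmental sarcomere list summed to 12544 and 5921 CPM. *Cdkn1c* without *Mymk* was found in 12 and 16 cells, at 1619 and 2143 CPM of the same list. Another range held at least 10 UMIs of *Acta1*, the actin of adult skeletal muscle, and no *Mymk* or *Cdkn1c*. It had 6 IgG and 13 SPP1-nAb cells, 15.6% of all members, in which the adult fast sarcomere list (without *Acta1*) summed to 121468 and 106754 CPM. In the *Mymk* range that list stood at 5139 and 4323 CPM.

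The cells with adult fiber RNA went against the name of differentiating myoblast. Their *Myog* UMIs had a median of 1.5 in IgG and 1 in SPP1-nAb, and exactly 1 UMI of *Myog* and *Mymk* put 3 of 6 and 8 of 13 of them into the set. The fusion list without *Mymk* summed to 20.8 and 172 CPM, compared with 1286 and 1053 CPM in the *Mymk* range, and the mitosis list to 0 and 11.5 CPM. The 20.8 and the 11.5 CPM each rest on fewer than 3 UMIs. *Myh4*, fast IIb myosin, stood at 1123 and 1433 CPM and the muscle creatine kinase gene *Ckm* at 6758 and 6236 CPM. Mitochondrial UMIs made up 0 to 0.121% of the UMIs of these cells in IgG. In SPP1-nAb they made up 0 to 4.02%, and in most of the 13 cells 0.724% or less. The medians of all members were 2.97% and 2.77%. Fiber nuclei, fragments of fibers and free RNA of fibers were not told apart. The members are therefore called *Myog*-positive myogenic cells. The adult fast sarcomere, shared sarcomere and energy metabolism lists are given with and without these 19 cells. In SPP1-nAb 2 further cells, kept by *Mymk* or *Cdkn1c*, had a like share of adult fast sarcomere UMIs, so a wider rule of 6% or more of a cell's UMIs in that list, set after these cells were seen, took the same 19 and these 2.

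The last range had no *Mymk* or *Cdkn1c* and fewer than 10 UMIs of *Acta1*. There were 3 such cells in IgG and 14 in SPP1-nAb, 1 of them with *Acta1* (3 UMIs), and the SPP1-nAb ones were deep, with a median of 14426 UMIs. Their S phase list summed to 1028 CPM and their mitosis list to 1456 CPM, and *Pax7* stood at 73.8 CPM, while *Actc1* stood at 10.6 CPM. The same split at 2000 UMIs per cell gave 8 of 51 cells in this range in IgG and 22 of 67 in SPP1-nAb, and 25 and 18 with *Mymk*. A split at 2000 UMIs by *Myh3* and *Pax7* gave 7 and 8 cells with *Myh3*, 3 and 2 with *Pax7* and no *Myh3*, and 41 and 57 with neither.

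**Figure D2:**
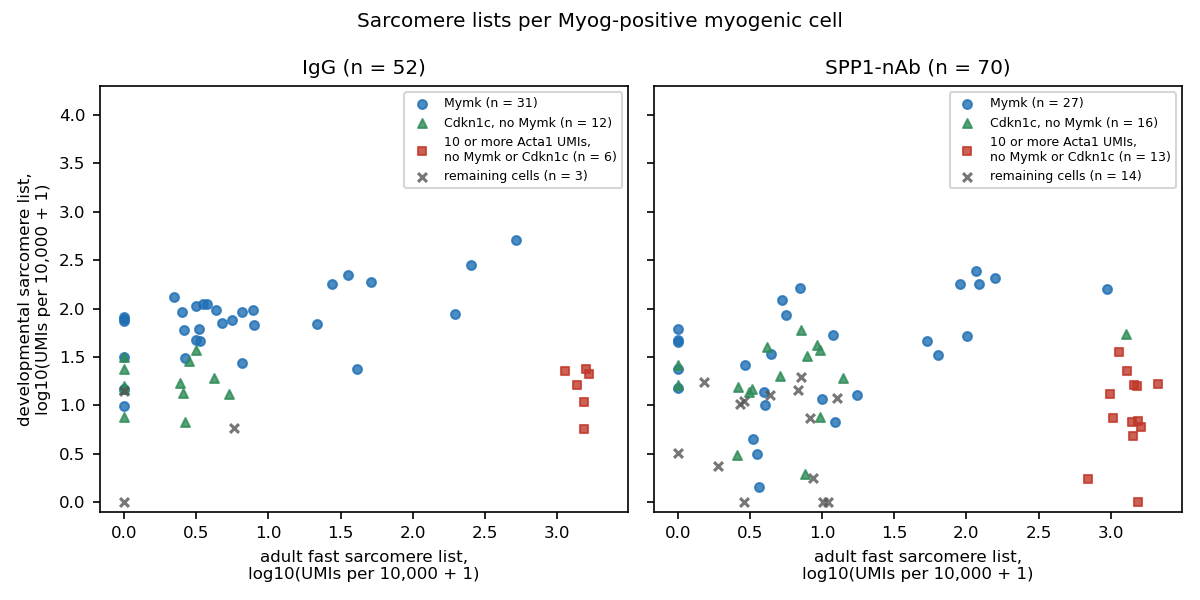
Developmental sarcomere list against adult fast sarcomere list in each *Myog*-positive myogenic cell, both as log10(UMIs per 10,000 + 1), with IgG on the left (n = 52) and SPP1-nAb on the right (n = 70) and 1 symbol per range. The 31 and 27 cells with *Mymk* (circles) reach highest on the developmental axis, the 6 and 13 cells with 10 or more *Acta1* UMIs and no *Mymk* or *Cdkn1c* (squares) lie at the right end, beside 1 circle and 1 triangle (*Cdkn1c*, no *Mymk*) in SPP1-nAb, and the 3 and 14 remaining cells (crosses), without *Mymk* or *Cdkn1c* and with fewer than 10 *Acta1* UMIs, lie low on both.

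The members made up 0.222% of the filtered IgG barcodes (52 of 23385, Clopper-Pearson interval 0.166 to 0.292) and 0.283% of the SPP1-nAb barcodes (70 of 24758, 0.221 to 0.357). The difference of 0.0604 percentage points had an interval of -0.0327 to 0.154. Among gated myogenic cells, *Myog*-positive and *Myog*-negative together, the share was 3.36% in IgG (2.52 to 4.38) and 6.73% in SPP1-nAb (5.28 to 8.43), a difference of 3.37 percentage points (1.60 to 5.27). The larger difference stands beside a smaller denominator, since gated myogenic cells were 6.62% of the IgG barcodes and 4.20% of the SPP1-nAb barcodes. It also stands beside the deeper SPP1-nAb library: with every cell thinned to 2000 UMIs and the rule applied again, 27 IgG and 30 SPP1-nAb cells remained and the difference was 1.69 percentage points (-0.324 to 3.89), and that of the filtered barcodes 0.00128 (-0.0779 to 0.0789). Without the 19 cells of adult fiber RNA the difference among gated myogenic cells was 2.57 percentage points (0.928 to 4.34), and without the 21 of the wider rule 2.39 (0.761 to 4.14).

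Between SPP1-nAb and IgG members, 3435 genes had at least 50 UMIs over both libraries together. Of these, 137 (3.99%) were at least 2-fold higher in SPP1-nAb and 160 (4.66%) at least 2-fold lower, with a median log2 ratio of -0.03. The housekeeping genes *Actb* and *Gapdh* differed by -0.05 and -0.04 log2 units. The counting interval of the ratio left out 0 for 135 of the 137 and all 160 of the genes lower, and with the count minimum at 20 UMIs the numbers were 425 and 421, at 200 UMIs 27 and 25. With the members chosen again at 2000 UMIs per cell (27 and 30 cells), 13 genes were higher and 10 lower among those that still reached the minimum. The number of genes compared changed with each of these settings, so these counts are not to be set beside 3.99% and 4.66%. Ratios given at 2000 UMIs per cell are of these 27 and 30 cells, and shares of the 51 and 67 members of that depth, except where the same 51 and 67 members are named for a ratio. Against these backgrounds the fixed gene lists are described below, by the number of their members past 2-fold and by their summed level.

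**Figure D3:**
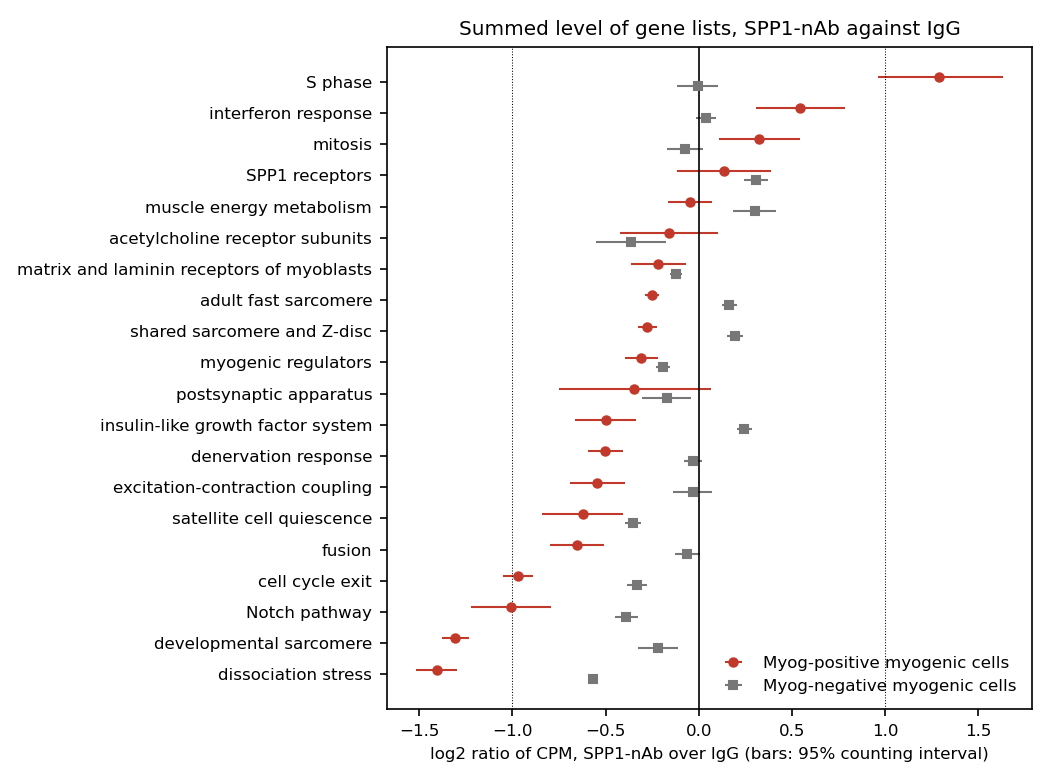
Log2 ratio of summed CPM, SPP1-nAb over IgG, of 20 gene lists in *Myog*-positive (circles) and *Myog*-negative (squares) myogenic cells, with bars for the 95% counting interval and dotted lines at 2-fold. In the *Myog*-positive cells the dissociation stress list (-1.41), the developmental sarcomere list (-1.31) and the Notch pathway list (-1.01) lie past 2-fold below and the S phase list (1.29) past 2-fold above, while the squares of the *Myog*-negative cells lie closer to 0 for these lists.

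*Myog* was lower in the SPP1-nAb members, at 2152 CPM in IgG against 1143 in SPP1-nAb, a log2 ratio of -0.91 (-1.05 to -0.78). With the members chosen again at 2000 UMIs the ratio was -0.33 (-0.71 to 0.06). In the same members thinned to that depth it was -0.88 (-1.19 to -0.58), and *Myog* was detected in 84.3% of 51 IgG and 64.2% of 67 SPP1-nAb cells, with 0 of 11268 and 0 of 14406 gated phagocytes, from which cells with *Myog* were left out. Cells chosen on exactly 1 UMI of *Myog* and *Mymk* were 8 of 52 and 18 of 70, and with at least 2 UMIs required the ratio was -0.76 (-0.90 to -0.62). *Myod1*, the determination factor upstream of *Myog*, was at 188 CPM in IgG against 276 in SPP1-nAb, a ratio of 0.55 (0.17 to 0.95), and 0.54 in *Myog*-negative cells. *Id2* and *Id3*, inhibitors that bind the partners of *Myod1* and *Myog*, were the only 2 of the 12 regulators compared that were past 2-fold, both higher in SPP1-nAb. *Id3* was found in 17 of 52 IgG cells and 40 of 70 SPP1-nAb cells, at 143 and 297 CPM (log2 ratio 1.06). *Id2* was found in 14 and 40 cells, at 100 and 240 CPM (1.26, 0.76 to 1.79). Of the MEF2 family, which works with the bHLH factors, *Mef2a* was at -0.08 (-0.32 to 0.17) and *Mef2c* at -0.57 (-0.86 to -0.27). *Mef2c* turned to 0.18 at 2000 UMIs per cell and to 0.34 when every cell had equal weight. It was at -1.41 (-1.95 to -0.89) in the *Mymk*-positive cells and at -0.42 (-0.80 to -0.03) in the *Mymk*-negative cells. Without the 19 cells of adult fiber RNA it was at -1.08 (-1.54 to -0.63), and without the 21 of the wider rule at -2.23 (-2.84 to -1.66).

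Of 8 fusion genes compared, 1 was past 2-fold higher (*Cdh15*) and 2 were lower (*Mymk* and *Cav3*), and *Mymk* and *Cdh15* are genes of the rule. The list summed to 1745 CPM in IgG against 1110 in SPP1-nAb (log2 ratio -0.65), a ratio that was -0.37 without the top 10% of barcodes by doublet score. Without those 2 genes it summed to 1043 and 798 CPM (-0.39, -0.57 to -0.20). In the cells with *Mymk* the whole list was at -0.59 (-0.76 to -0.43), and without those 2 genes at -0.38 (-0.60 to -0.16). In the cells without *Mymk* the whole list was at 0.05 (-0.28 to 0.40), and with the members chosen again at 2000 UMIs per cell at -0.23 (-0.70 to 0.25). *Mymk* ran from 0 over a median of 2 to 31 UMIs per cell in IgG and from 0 over a median of 0 to 29 in SPP1-nAb, at 677 and 238 CPM (-1.51, -1.79 to -1.24). Thinned to 2000 UMIs, *Mymk* was in 49.0% (34.8 to 63.4) and 26.9% (16.8 to 39.1) of cells. *Mymk* was part of the rule, so this ratio is a description. *Mymx*, which the rule did not use, was at 206 and 112 CPM (-0.88, -1.33 to -0.43), and without the 5 IgG and 2 SPP1-nAb members of high doublet score the ratio was 0.05. *Cav3*, the caveolin of muscle, was lower (-1.35), and the adhesion protein M-cadherin, *Cdh15*, a gene of the rule, was in 8 of 52 and 30 of 70 cells and higher (1.56, 0.58 to 2.69).

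The developmental sarcomere genes were lower in the SPP1-nAb members. Of 9 compared, 6 were past 2-fold lower, *Tnni1*, *Actc1*, *Myh3*, *Myl4*, *Tnnc1* and *Acta2*, and 0 were higher. The list summed to 8571 CPM in IgG against 3464 in SPP1-nAb, a log2 ratio of -1.31 (-1.38 to -1.23), compared with -0.22 in *Myog*-negative cells. The median ratio of its genes was -1.24. *Actc1* ran from 0 over a median of 1.5 to 131 UMIs per cell in IgG and from 0 over a median of 0 to 145 in SPP1-nAb, and it was detected in 30 of 52 and 25 of 70 cells. Its level was 2470 and 1070 CPM (-1.21, -1.34 to -1.07). *Actc1* at 2000 UMIs per cell was in 51.0% and 25.4% of members, against 0.0888% and 0.0486% of gated phagocytes. *Tnnt2* stood at 1083 and 622 CPM (-0.80, -0.99 to -0.61).

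A few IgG cells carried part of this difference. *Myl4*, the embryonic and atrial myosin light chain, was at 928 CPM in IgG against 119.5 in SPP1-nAb (-2.96, -3.30 to -2.63), with 239 of its 370 IgG UMIs in 1 cell and 85.4% in 3. *Myh3* was at 411 and 89.0 CPM (-2.21, -2.63 to -1.80), with 87.8% of its IgG UMIs in 3 cells. The 100 IgG UMIs of *Tnnc1*, the slow and cardiac troponin C, came from 2 cells. Removing the barcodes with the highest doublet scores, 5 IgG and 2 SPP1-nAb members, turned *Myh3* to 0.35 and took *Myl4* to -0.38, *Actc1* to -0.89 and the list to -0.69. Their part in the other values of these genes was not tested. The list stayed lower under each setting tried, between -1.48 and -0.69, and at -1.08 within the 31 and 27 cells that held *Mymk*. In the 21 and 43 cells without *Mymk* it was at -0.30 (-0.53 to -0.06), and *Actc1* there had 3 and 19 UMIs (1.14, -0.62 to 3.54).

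The adult fast sarcomere genes did not give 1 direction. Of 10 compared, 1 was past 2-fold lower (*Myh1*, 30 and 20 UMIs), and the list summed to 21940 and 18417 CPM, a log2 ratio of -0.25, which became 0.63 when every cell had equal weight and 0.66 at 2000 UMIs per cell. *Tnnt3*, fast troponin T, was at 5973 and 5101 CPM and came from 13 IgG and 44 SPP1-nAb cells. Without the 19 cells of adult fiber RNA the list ratio was -0.08 (-0.16 to 0.00), with 1948 of the 3452 SPP1-nAb UMIs left in the 2 cells that only the wider rule took, and without all 21 it was -1.25 (-1.34 to -1.15). Of the 1832 IgG UMIs that either rule left, 991 were in 1 cell. The ratio without that cell was not computed, so -1.25 rests in large part on it. *Tnnt3* was at 0.95 (0.72 to 1.18) without the 19, at -0.41 (-0.68 to -0.15) without the 21 and at 0.30 (0.15 to 0.45) in the same members thinned. The shared sarcomere and Z-disc list, with titin (*Ttn*), nebulin (*Neb*) and the tropomyosins, was at -0.28. It turned to 0.33 when every cell had equal weight and to 0.41 at 2000 UMIs per cell. Without the 19 cells this list was at -0.30 (-0.38 to -0.23), and without the 21 at -0.48 (-0.55 to -0.41). *Neb* was at -0.86 (-1.06 to -0.66). It was at -1.15 (-1.41 to -0.90) in the *Mymk*-positive cells and at -0.15 (-0.51 to 0.22) in the *Mymk*-negative cells. Without the 19 cells *Neb* was at -1.17 (-1.40 to -0.94), without the 21 at -1.18 (-1.42 to -0.95) and in the same members thinned at -0.12 (-0.56 to 0.32). *Tpm1* was close to equal at 5269 and 5405 CPM (0.04, -0.04 to 0.11).

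The genes of the postsynaptic membrane are expressed by a myoblast and by a denervated fiber. The acetylcholine receptor subunits *Chrna1*, *Chrnb1*, *Chrnd*, *Chrng* and *Chrne* summed to 476.5 CPM in IgG against 426 in SPP1-nAb, a log2 ratio of -0.16 (-0.42 to 0.10), and 0 of 3 compared were past 2-fold. *Chrna1*, a gene of the rule, gave 77.4% and 73.4% of these UMIs, and the other 4 subunits stood at 108 and 113 CPM (0.07, -0.47 to 0.63). At 2000 UMIs per cell, with the members chosen again, the ratio was -0.88 (-1.64 to -0.14), and in the same members thinned -0.02 (-0.64 to 0.60). *Chrna1* ran from 0 over a median of 2 to 12 UMIs in IgG and from 0 over a median of 2 to 15 in SPP1-nAb, at 369 and 313 CPM (-0.24, -0.54 to 0.07). At 2000 UMIs it was in 45.1% and 44.8% of the cells, against 0.249% and 0.146% of gated phagocytes. *Chrng*, the fetal γ subunit, had 13 and 44 UMIs (0.78, -0.14 to 1.80), and *Chrne*, the adult ε subunit that replaces it, had 0 in both libraries, where 3 UMIs would allow 7.52 and 3.81 CPM.

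The postsynaptic apparatus list (-0.35, -0.75 to 0.07) held *Musk*, the receptor kinase that agrin activates, at 87.8 and 49.6 CPM (-0.82, -1.52 to -0.12). *Rapsn*, which clusters the receptor, was at 52.7 and 77.5 CPM (0.56, -0.18 to 1.35). The denervation response list stood at -0.50, and at -0.11 (-0.26 to 0.03) without *Myog* and *Chrna1*, genes of the rule. *Trim63*, the ubiquitin ligase MuRF1, was the 1 gene of 10 compared past 2-fold higher (40.1 and 82.6 CPM, 1.04, 0.24 to 1.93). *Trim63* reached the minimum of 50 UMIs through SPP1-nAb, where it was higher, so this count is only a description. *Runx1*, a transcription factor induced in denervated muscle, was at 394 and 470 CPM (0.26, -0.02 to 0.54).

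Of the genes of cell cycle exit, the kinase inhibitor *Cdkn1c* and the growth suppressors *Rb1* and *Btg2* were past 2-fold lower in the SPP1-nAb members. *Cdkn1c* ran from 0 over a median of 29 to 149 UMIs per cell in IgG and from 0 over a median of 1.5 to 233 in SPP1-nAb, and it was found in 41 of 52 and 38 of 70 cells. Its level was 4341 and 1912 CPM (log2 ratio -1.18, -1.28 to -1.08), compared with -0.09 in *Myog*-negative cells. Cells at 0 were more frequent in SPP1-nAb, while the highest cells reached 16219 and 14717 CPM. With 2000 UMIs drawn per cell, *Cdkn1c* was in 66.7% (52.1 to 79.2) and 49.3% (36.8 to 61.8) of members, against 2.10% and 1.40% of gated phagocytes, and the ratio was -0.91 (-1.13 to -0.69) in these thinned members and -0.75 with the members chosen again. *Rb1*, the retinoblastoma protein that holds E2F in check, was at 306 and 118 CPM (-1.37, -1.78 to -0.97), and *Btg2*, an antiproliferative gene, at 130 and 62.3 CPM (-1.07, -1.66 to -0.47). *Cdkn1a* was at 1063 and 815 CPM (-0.38, -0.56 to -0.20). Of 7 genes of the list compared, 3 were past 2-fold lower, and the list stood at -0.97, compared with -0.33 in *Myog*-negative cells.

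Of the S phase genes, 3 of 4 compared were past 2-fold higher. These 3 reached the minimum of 50 UMIs through SPP1-nAb, where they were higher, so their count is only a description. The list of 12 summed to 231 CPM in IgG against 564 in SPP1-nAb (log2 ratio 1.29, 0.96 to 1.63), with -0.01 in *Myog*-negative cells. Most of its 444 SPP1-nAb UMIs came from the 18 cells of at least 15161 UMIs. The 3 IgG cells of that depth held few of the 92 IgG UMIs. The summed ratio thus rests in large part on the deep SPP1-nAb cells. *Pcna*, the sliding clamp of the replication fork, had 15 UMIs in 10 of 52 IgG cells and 78 UMIs in 31 of 70 SPP1-nAb cells (1.40, 0.59 to 2.30). *Mcm7*, of the replicative helicase, had 10 and 76 UMIs (1.95, 0.99 to 3.06), and *Rrm2*, of ribonucleotide reductase, 15 and 65 UMIs (1.14, 0.31 to 2.05). Deeper cells show more genes, and 3 or more S phase genes were seen in 8 of 52 IgG cells (15.4%, 6.88 to 28.1) and 26 of 70 SPP1-nAb cells (37.1%, 25.9 to 49.5). At 2000 UMIs per cell the list was at 0.53 (-0.46 to 1.56), in the same members thinned at 0.63 (-0.02 to 1.31), and with equal weight of cells at 0.79 (0.45 to 1.14). *Pcna*, thinned to 2000 UMIs, was in 7.84% and 13.4% of members, below the 17.9% and 18.7% of gated phagocytes.

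The mitosis list stood at 627 and 786 CPM (0.33, 0.11 to 0.54), with 2 of 8 compared past 2-fold higher, *Cdk1* and *Birc5*. Both genes reached the UMI minimum for comparison through SPP1-nAb, where they were higher, so this count, too, is only a description. The list turned to -0.21 with equal weight of cells and to -0.30 (-0.83 to 0.23) when the same members were thinned to 2000 UMIs, and it was at 1.49 when the members were chosen again at that depth. *Cdk1*, the kinase of mitotic entry, had 7 and 51 UMIs (1.89, 0.74 to 3.27) and *Birc5* (survivin) 18 and 75 (1.08, 0.32 to 1.91). *Top2a*, which untangles chromosomes, was in 8 of 52 and 16 of 70 cells (0.58, 0.17 to 1.01), and at -0.06 with equal weight. In 8 IgG and 17 SPP1-nAb cells at least 3 mitosis genes were seen. All 8 of the IgG cells also held *Cdkn1c*, and 5 of the 17 SPP1-nAb cells did, and 4 and 8 held *Mymk*. Doublets of a cycling and a differentiating cell were scored and not called, so cells with both kinds of gene are given as counted. Within the *Mymk*-positive cells the S phase list was at 1.43 (0.96 to 1.93) and the mitosis list at 1.78 (1.35 to 2.23), with 203 of the 267 mitosis UMIs of these SPP1-nAb cells in 2 cells, while in the *Mymk*-negative cells they were at 1.00 and -0.69. Without these 2 cells the mitosis list was at -0.11 (-0.65 to 0.45) in the *Mymk*-positive cells and turned to -0.17 (-0.40 to 0.06) in all members, and the S phase list was at 1.27 and 1.24. The 2 cells were chosen by their mitosis UMIs and in SPP1-nAb only, so a fall of the mitosis ratio was fixed by the choice. In IgG, too, few cells held the mitosis UMIs, with 74.4% in 3 cells, compared with 48.7% in 3 cells in SPP1-nAb.

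Among genes with at least 100 UMIs in at least 20 members, *Spp1*, *Gal* and *Fabp5* ranked first as higher in SPP1-nAb. The 10 genes of this ranking all reached that minimum through SPP1-nAb, where they were higher, so the ranking is only a description. *Spp1*, which encodes the protein that the antibody binds (chr5:104582165-104589235 on GRCm39, GENCODE annotation), had 4 UMIs in 3 of 52 IgG cells and 229 UMIs in 30 of 70 SPP1-nAb cells. Its level was 10.0 and 291 CPM (log2 ratio 4.86, 3.48 to 6.75), and the ratio was 1.08 in *Myog*-negative cells and 0.74 in all other barcodes. Of the 229 UMIs, 67 came from 1 cell, which also held 6 *Lyz2* and 148 *Acta1* UMIs and is among those of adult fiber RNA. The cells with *Spp1* were a minority in both libraries, and the ratio without the 19 cells of adult fiber RNA was 4.34 (2.96 to 6.24). At 2000 UMIs per cell, with the members chosen again, it was 0.85 (-1.96 to 4.32), and in the same members thinned it was 4.36 (1.76 to 9.72) from 1 and 27 UMIs.

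*Spp1* is also a macrophage transcript, and these libraries were rich in macrophages. Thinned to 2000 UMIs per cell, *Spp1* was in 1.96% of IgG and 17.9% of SPP1-nAb members, while gated phagocytes had it in 19.5% and 29.6%, so the share alone does not tell expression from free RNA. *Lyz2*, a lysozyme gene of macrophages, gave a second count of such RNA. There were 0.110 *Spp1* UMIs per *Lyz2* UMI in IgG phagocytes and 0.173 in SPP1-nAb phagocytes. In the members this ratio was 0.0588 in IgG (4 and 68 UMIs) and 4.58 in SPP1-nAb (229 and 50 UMIs), and in *Myog*-negative myogenic cells 0.516 and 0.735. In SPP1-nAb, 76 *Spp1* UMIs came from 13 members that had no *Lyz2*. Of the 68 *Lyz2* UMIs in IgG members, 59 came from 2 cells without *Spp1*, and the ratio of the others was 0.444 (4 and 9 UMIs). Leaving out 2 SPP1-nAb cells in the same way, with 8 *Lyz2* UMIs, gave 3.71 (156 and 42 UMIs). The source of the *Spp1* UMIs beyond these ratios was not tested.

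**Figure D4:**
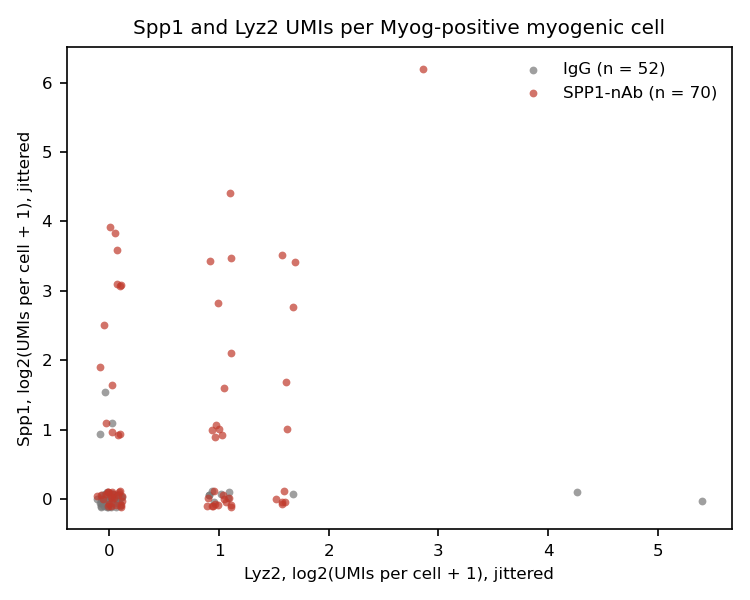
*Spp1* against *Lyz2* in each *Myog*-positive myogenic cell as log2(UMIs + 1), jittered, for IgG (n = 52, grey) and SPP1-nAb (n = 70, red). The SPP1-nAb points reach 67 *Spp1* UMIs, in a cell with 6 *Lyz2* UMIs, while the 3 IgG cells with *Spp1* hold no more than 2 UMIs each.

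*Gal* encodes the neuropeptide galanin, and its ratio in the members ran against that in other cells. It had 17 UMIs in 6 of 52 IgG cells and 525 UMIs in 28 of 70 SPP1-nAb cells, with at most 7 and 87 UMIs in a cell. Its level was 42.6 and 667 CPM (log2 ratio 3.97, 3.28 to 4.76). In *Myog*-negative myogenic cells *Gal* went the other way, from 445 to 142 CPM (-1.65), and in all other barcodes the ratio was -1.71. *Gal* at 2000 UMIs per cell was in 3.92% (0.479 to 13.5) of IgG members and 31.3% (20.6 to 43.8) of SPP1-nAb members, against 0.541% and 0.222% of gated phagocytes. With the members chosen again at this depth the log2 ratio was 1.77 (0.68 to 3.01), and over all settings it lay between 1.77 and 4.25 (3.41 in the same members thinned). In SPP1-nAb 20 cells held both *Gal* and *Spp1*, at a median depth of 20136 UMIs, and in IgG 0 did. Within the *Mymk*-positive cells *Gal* was at 4.05 (3.28 to 4.93) and in the *Mymk*-negative cells at 4.43 (2.86 to 6.72).

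The other 8 genes of this ranking were *Fabp5*, *Dut*, *Pclaf*, *Pak1*, *Tuba1c*, *Cd200*, *Lgals3* and *Pfdn4*. *Fabp5*, a fatty acid binding protein, was in 8 of 52 and 29 of 70 cells, at 25.1 and 238 CPM (3.25, 2.33 to 4.33), and its ratio in *Myog*-negative cells was 0.80. At 2000 UMIs it was in 5.88% and 16.4% of members, below the 33.8% and 53.7% of gated phagocytes. *Dut* (dUTPase) and *Pclaf* (a partner of PCNA), both of DNA synthesis, were at 2.53 (1.75 to 3.44) and 2.12 (1.49 to 2.81), against -0.06 and 0.17 in *Myog*-negative cells. *Pak1*, a kinase of the actin cytoskeleton, was at 1.83 and the tubulin gene *Tuba1c* at 1.78. In the *Mymk*-positive cells *Tuba1c* was at 3.84 (2.23 to 6.16) and in the *Mymk*-negative cells at 0.37 (-0.50 to 1.34). *Pak1* was at 2.50 (1.36 to 3.88) and 1.12 (0.23 to 2.14) in these cells. *Cd200*, a surface protein that restrains myeloid cells, was in 10 of 52 and 38 of 70 cells (1.74, 1.06 to 2.50), with -0.21 in *Myog*-negative cells. *Lgals3* (galectin-3), which macrophages also express, was at 125 and 389 CPM (1.63, 1.20 to 2.09), and the prefoldin subunit *Pfdn4* at 1.57.

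**Figure D5:**
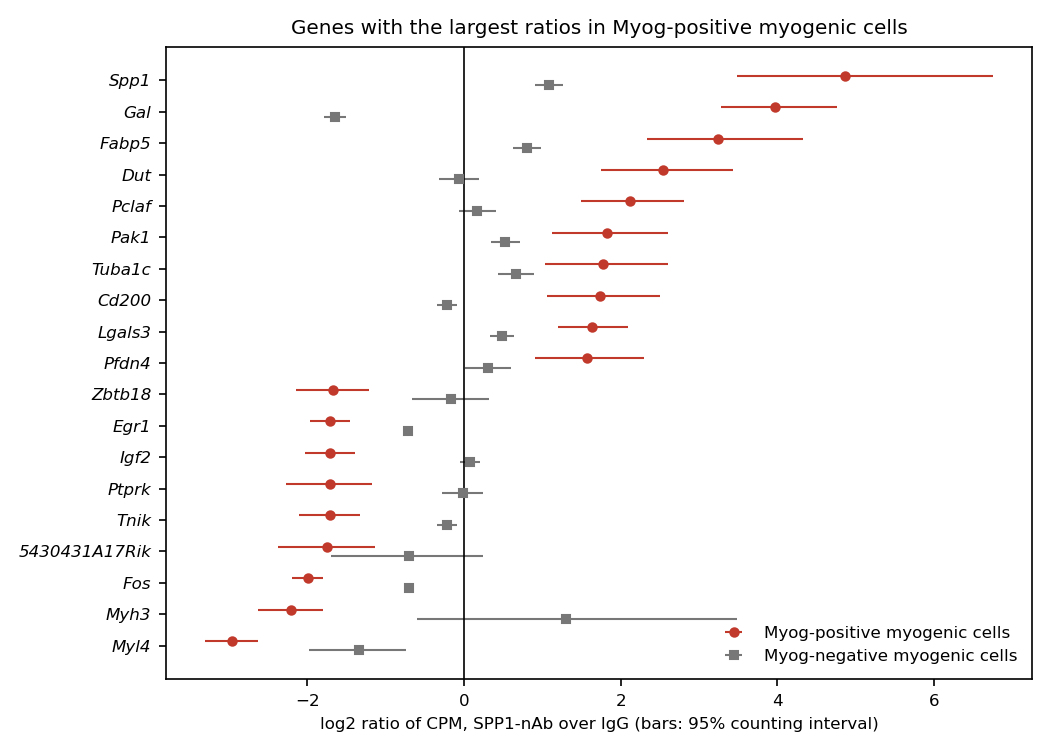
Log2 ratio of CPM, SPP1-nAb over IgG, for the 10 genes ranked higher and 9 of those ranked lower in SPP1-nAb *Myog*-positive myogenic cells (circles), beside *Myog*-negative myogenic cells (squares), with bars for the 95% counting interval. *Spp1* (4.86) and *Gal* (3.97) lie farthest to the right and *Myl4* (-2.96) farthest to the left, and the *Gal* square lies at -1.65.

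At the other end of the ranking, beside *Myl4* and *Myh3*, stood the early response genes *Fos* and *Egr1*. *Fos* was in 47 cells of each library, with a median of 6 UMIs in IgG and 1 in SPP1-nAb, and stood at 1613 and 404 CPM (-2.00, -2.20 to -1.80). *Egr1* was at 858 and 263 CPM (-1.71, -1.96 to -1.45). Both are induced when tissue is digested. They were lower in SPP1-nAb in other cells as well, at -0.86 and -1.34 in all other barcodes and at -0.70 and -0.72 in *Myog*-negative cells. The dissociation stress list, with 3 of 7 past 2-fold lower (*Fos*, *Egr1* and *Ier2*), was at -1.41 in the members, -0.57 in *Myog*-negative cells and -0.66 in all other barcodes, and whether sample handling has a part in the other ratios was not tested. *Igf2*, a growth factor that differentiating myoblasts secrete, was at 539 and 165 CPM (-1.71, -2.03 to -1.39), with 0.08 in *Myog*-negative cells. *Ptprk*, a receptor phosphatase, and *Tnik*, a kinase of Wnt signaling, were both at -1.71, the transcriptional repressor *Zbtb18* at -1.67 (0.14 at 2000 UMIs per cell, -1.09 in the same members thinned) and *5430431A17Rik* at -1.75.

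Of the Notch pathway, 2 of 5 genes compared were past 2-fold lower. The list summed to 913 and 454 CPM (log2 ratio -1.01, with -0.39 in *Myog*-negative cells). *Megf10*, a receptor that works with Notch in satellite cells, was in 40 of 52 and 35 of 70 cells, at 411 and 139 CPM (-1.57, -1.93 to -1.21). *Notch2* was at 95.3 and 33.1 CPM (-1.53, -2.31 to -0.77). *Hes6*, which is induced in differentiating myoblasts, had 58 UMIs in each library (-0.98, -1.53 to -0.43), and the ligand *Dll1* had 31 and 12 UMIs, too few for the comparison. *Megf10* and *Notch2* were thus the 2 genes past 2-fold, and *Hes6* did not pass.

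The receptors of SPP1 were close to equal in sum. *Itgb1*, the β1 integrin chain, was in 45 of 52 and 57 of 70 cells, at 283 and 278 CPM (-0.03, -0.36 to 0.31). *Cd44* was in 23 and 41 cells, at 145 and 202 CPM (0.47, 0.03 to 0.93), which turned to -0.57 at 2000 UMIs per cell and was 0.05 in the same members thinned. In the *Mymk*-positive cells *Cd44* was at 1.05 (0.36 to 1.80) and in the *Mymk*-negative cells at -0.18 (-0.76 to 0.43). The list of 8 receptors summed to 489 and 536 CPM (0.13, -0.11 to 0.39), compared with 0.31 in *Myog*-negative cells. *Itga9* had 0 UMIs in both libraries, and *Itgb3* had 1 in IgG and 0 in SPP1-nAb.

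Markers of other cells were few in the members. Of the 11 phagocyte genes, all 11 were detected in both libraries and summed to 790 CPM in IgG against 891 in SPP1-nAb, compared with 24161 and 27774 CPM in all other barcodes. *Cd74* gave the most of these UMIs in IgG (128) and *Spp1* in SPP1-nAb (229). *Csf1r* and *C1qa* are at 0 by the rule, while *C1qb* had 6 and 21 UMIs and *Lyz2* 68 and 50. The mesenchymal list (7 and 6 of its 7 genes, with *Lum* at 0 in SPP1-nAb) summed to 243 and 269.5 CPM, led by *Col1a2*, which was at 77.7 and 161 CPM, while *Col1a1* had 2 and 5 UMIs. Endothelial genes gave 2 and 8 UMIs (mostly *Fabp4*, with *Cldn5* and *Egfl7* at 0 in both), Schwann cell genes 6 and 7 (*Ngfr* first in both, with *S100b* and *Gfra3* at 0), neutrophil genes 15 and 31 (mostly *S100a8*, with *Retnlg* at 0) and mural genes 17 and 28 (*Abcc9* in IgG and *Notch3* in SPP1-nAb, with *Kcnj8* and *Pdgfrb* at 0), and lymphocyte genes gave 0 in both. Of the tenocyte list, the transcription factor *Scx*, which cells at the muscle and tendon junction can also express, gave 92.6% and 96.8% of the UMIs, with *Comp* at 0. The transcript of the GFP reporter was found in 2 of 52 and 8 of 70 members, compared with 43.5% and 56.5% of gated phagocytes, although the titles of the libraries name GFP-positive cells. The part of these transcripts in the ratios above was not tested.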

How the data were processed

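The authors deposited UMI counts per gene and barcode for 2 libraries of 10x Genomics scRNA-Seq. Cell Ranger made them, version 8.0.0 in the notes and methods and 9.0.1 in the file headers, on GRCm39 per the notes. The removal of ambient RNA and of doublets that the methods describe is not part of the deposited counts. From these counts, whole numbers over 32287 features, filters and rule were applied as stated, UMIs were summed over the cells of a library and scaled to 1000000 (CPM). Intervals were exact: Poisson for CPM, Clopper-Pearson for shares, and binomial for ratios. They cover counting error only. No test was possible with 1 library per condition. The members and gene lists were chosen with earlier results of these data known.

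Genes compared had at least 50 UMIs over the cells compared. The genes named were the most abundant of each list, the 15 highest and 10 lowest of *Myog*-positive over *Myog*-negative cells by the weaker library, and 10 per direction between libraries, each with at least 100 UMIs in at least 20 cells, without mitochondrial, ribosomal, hemoglobin and immunoglobulin genes, *Xist*, Tsix and Y-linked genes. Genes with too few UMIs that are named beside them, the ranges by *Mymk*, *Cdkn1c* and *Acta1*, and *Actb*, *Gapdh* and the GFP reporter were chosen after the values were seen. A few genes of these rankings are not reported here. Shares were compared at 2000 UMIs per cell, drawn with a fixed seed, and cells below were left out (1 IgG and 3 SPP1-nAb members). Doublets were scored against simulated pairs of barcodes and not removed. The alternatives tried were 13 planned and 7 added ones, described with the dependence of the results on the processing. Code was tested on simulated counts. Python 3.11.15, NumPy 2.4.6, pandas 2.3.3, SciPy 1.17.1, scikit-learn 1.9.0 and matplotlib 3.10.9 were used. Gene loci came from GENCODE on GRCm39, where 31674 of the 32287 IDs matched, and promoters from RefSeq on GRCm38.p6.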

Additional observations from a re-analysis of the deposited data

Results flagged for a closer look

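For 3 gene lists and 2 genes the log2 ratio of SPP1-nAb over IgG had opposite signs in *Myog*-positive and *Myog*-negative myogenic cells with both counting intervals clear of 0. The difference itself was not tested, since each condition was 1 library. The adult fast sarcomere list was at -0.25 in *Myog*-positive and 0.16 in *Myog*-negative cells, the shared sarcomere and Z-disc list at -0.28 and 0.20, and the insulin-like growth factor list at -0.50 and 0.25. All 3 turned to a positive sign in the *Myog*-positive cells at 2000 UMIs per cell, and the 2 sarcomere lists also with equal weight of cells. *Gal* was at 3.97 in *Myog*-positive and -1.65 in *Myog*-negative cells, and kept its positive sign in the *Myog*-positive cells under every setting tried. *Cd200* was at 1.74 and -0.21.

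Outside the comparisons, 17 IgG and 27 SPP1-nAb cells held *Myog* or *Mymk* and at least 2 of the 6 myogenic genes and were left out because they also held a UMI of *Csf1r*, *C1qa*, *Pdgfra* or *Pecam1*. Their median depth was 8891 and 15821 UMIs and their median of *Myog* and *Mymk* UMIs 11 and 6. *C1qa* was the excluded gene in 14 and 18 of them and *Csf1r* in 4 and 13.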

How the results depend on the processing

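Of 1047 values of 71 results under the alternatives, 838 stayed within the counting interval of the main result (counts of genes within 1.5 times). A further 179 lay outside it without being counted as turned, and 30 turned. A value was counted as turned when its sign changed and the main interval left out 0. Changes of sign of other results are among the 838 and the 179. No paired analysis was possible because each condition was 1 library and the labels give no replicate numbers. At 2000 UMIs per cell, with 27 and 30 members, 522 genes were lower in *Myog*-positive cells, 13 were higher and 10 lower in SPP1-nAb, and the list ratios were 0.0473 for myogenic regulators (turned), -0.23 for fusion, -0.88 for acetylcholine receptor subunits, -1.01 for developmental sarcomere, 0.53 for S phase, 1.49 for mitosis, -0.68 for cell cycle exit, and 0.66, 0.41 and 0.18 (all turned) for adult fast sarcomere, shared sarcomere and the insulin-like growth factor system. *Zbtb18* (0.14), *Acta1* (0.64), *Mylpf* (0.72), *Cd44* (-0.57) and *Mef2c* (0.18) turned as well. With equal weight of cells the ratios were -0.48 for fusion, -0.94 for developmental sarcomere, 0.79 for S phase, -0.76 for cell cycle exit, and, turned, 0.63 for adult fast sarcomere, 0.33 for shared sarcomere, -0.21 for mitosis, 0.53 for *Acta1*, 0.83 for *Mylpf*, -0.0634 for *Top2a* and 0.34 for *Mef2c*. Without the top 10% of barcodes by doublet score, fusion was at -0.37 and developmental sarcomere at -0.69, and *Myh3* (0.35), *Mymx* (0.0544) and *Mylpf* (0.0534) turned. With at least 3 of the 6 myogenic genes, 417 genes were higher in *Myog*-positive cells, and developmental sarcomere was at -1.12 (-1.23 with at least 2 UMIs of *Myog* and *Mymk*), mitosis at 0.10 and cell cycle exit at -1.19. A minimum of 20 UMIs per gene gave 425 higher and 421 lower in SPP1-nAb, and of 200 UMIs 27 and 25, with 382 higher in *Myog*-positive cells, as fewer genes were compared. Counts of genes in this paragraph stand without the number of genes compared, which changed with the cells and the minimum. Chosen after seeing the data, keeping cells with excluded genes gave 265 genes higher in SPP1-nAb, -1.48 for developmental sarcomere, 0.58 for mitosis and -1.09 for cell cycle exit, and leaving out the cells of adult fiber RNA by either rule moved no gene count past 1.5 times, with developmental sarcomere at -1.40 by the wider. The same members thinned to 2000 UMIs, also added, gave -0.98 for developmental sarcomere, -0.78 for Notch pathway, 0.63 for S phase, -0.72 for cell cycle exit, and, turned, -0.30 for mitosis, 0.39 for adult fast sarcomere, 0.27 for shared sarcomere, 0.0306 for the insulin-like growth factor system 0.0589 for matrix and laminin receptors, 0.27 for *Acta1*, 0.60 for *Mylpf*, -0.21 for *Top2a* and 0.44 for *Mef2c*. Without the genes of the rule fusion was at -0.39 and myogenic regulators turned to 0.0615, and without the 2 SPP1-nAb cells of most mitosis UMIs mitosis turned to -0.17. That last removal was made in 1 library and by the value itself, which lowers the ratio by construction. The causes were not tested. The 122 cells limit rare genes: 3 UMIs correspond to 7.52 CPM in IgG members and 3.81 in SPP1-nAb members.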

Other observations

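Several other gene groups were measured in the *Myog*-positive myogenic cells. Interferon response genes were higher in sum in SPP1-nAb, at 489 CPM in IgG against 713 in SPP1-nAb (log2 ratio 0.54, 0.31 to 0.79), with 0 of 3 genes compared past 2-fold and 0.04 in *Myog*-negative cells. *Ifitm3*, an antiviral membrane protein, gave 65.1% of these UMIs in IgG and 72.0% in SPP1-nAb, so the sum is mostly this gene. *Ifitm3* was in 28 of 52 and 49 of 70 cells (0.69, 0.40 to 0.99) and *Bst2* (tetherin) in 13 and 24 cells (0.66, 0.01 to 1.36). In all other barcodes the interferon list summed to 3503 and 2708 CPM, so its level there was lower in SPP1-nAb.

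In the insulin-like growth factor list, *Igf2* was the only 1 of 7 genes compared past 2-fold. The receptor *Igf1r* was at 203 and 118 CPM (-0.78, -1.23 to -0.33), and *Igfbp5*, a binding protein, was in 14 of 52 and 36 of 70 cells (0.67, 0.28 to 1.07). *H19*, the noncoding RNA beside *Igf2*, was at 186 and 164 CPM (-0.18, -0.60 to 0.25).

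Excitation-contraction coupling genes were at 1650 and 1131 CPM (-0.54, -0.69 to -0.40), with 1 of 9 compared past 2-fold lower, *Srl* (sarcalumenin, -1.13, -1.82 to -0.45). The calcium pump *Atp2a1* was in 37 and 52 cells (-0.42, -0.72 to -0.12). The energy metabolism genes were close to equal at 2232 and 2158 CPM (-0.05, -0.17 to 0.07), at 0.77 (0.53 to 1.00) without the 19 cells of adult fiber RNA and at 0.31 (0.07 to 0.56) without the 21 of the wider rule. *Eno3*, the enolase of muscle, was at 0.85 (0.54 to 1.16) in all members and at 1.09 (0.71 to 1.49) without the 21. Receptors for matrix and laminin were at -0.22, and *Dag1* (dystroglycan) was in 43 and 55 cells at 549 and 477 CPM (-0.20, -0.45 to 0.04). The quiescence genes were low in both libraries, at 777 and 505 CPM.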
